A study of Mus musculus with 7 samples.

Results

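The genes described are the mouse carriers of 4 solute carrier families, Slc1a, Slc6a, Slc7a and Slc38a, in cells of the postnatal and adult brain. Members were all genes whose symbol is one of these prefixes followed by a number, which gave 54 of the 31053 genes in the count tables: 7 Slc1a, 21 Slc6a, 15 Slc7a and 11 Slc38a genes. Another 2 symbols with these prefixes, Slc7a6os and Slc6a19os, are opposite-strand genes and were left out. The data are 7 droplet single-cell RNA libraries (10x Chromium 3′ kit) of primary brain cells without treatment. The 3 adult libraries, all from CD1 mice at P60, are cortex (the tissue above the lateral ventricles with its ventricular-subventricular zone, white matter and grey matter), grey matter (above the cortical white matter) and white matter (corpus callosum with the ventricular-subventricular zone). The 4 early postnatal libraries are P2 cortex, P7 cortex and P15 cortex from CD1 mice, and P7 SVZ, the microdissected dorsal and lateral ventricular-subventricular zone of C57BL/6 mice. The labels say nothing of separate animals, so p-values measure the spread between these libraries, which may be technical.

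Glutamate, GABA and glycine are cleared from the space around synapses by sodium-coupled carriers rather than by breakdown. Glutamate carriers of the Slc1a family in astrocytes take up most of it, glutamine synthetase (Glul) turns it into glutamine inside the astrocyte, and glutamine carriers of the Slc38a family return that to neurons. The Slc6a family carries GABA, glycine, monoamines, taurine, creatine and proline. The Slc7a family exchanges amino acids across membranes, and several of its members work only when paired with the heavy chain Slc3a2. At the blood-brain barrier, carriers of endothelial cells bring essential amino acids from blood to brain.

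Libraries held 2127 to 6379 barcodes and 10074763 to 45668007 UMIs (molecules counted once by their tag), and 20697 cells were kept. Clustering without any of the 54 genes gave 47 clusters, of which 38 were named by marker lists into 17 classes, 15 of which reached 20 cells in at least 1 library and were summed. The 9 unnamed clusters held 1924 cells, between 0.784% of P60 cortex and 20.6% of P7 SVZ. P7 SVZ stood apart: 33.4% of its barcodes exceeded the limit of 10% mitochondrial UMIs, its cell barcodes come from another set, judged by their first letters, and its OPC-like, astrocyte-like, neural precursor-like and neuroblast-like cells lay mostly in clusters of their own. P60 grey matter held the highest level of microglial markers in precursor cells of the oligodendrocyte lineage, 1823 CPM of the microglia list in its oligodendrocyte precursor cell (OPC)-like cells, against 436 and 169.5 CPM in the other P60 libraries and 9.34 to 132 CPM in the early ones. Any 2 libraries shared at most 28 cell barcodes. Levels are CPM, the UMIs of a gene per 1000000 UMIs of its class in a library, summed over at least 20 cells. A 3′ kit gives about 1 count per molecule whatever its length, so CPM can be set side by side between genes as molecule shares, with the reservation that capture differs between transcripts. In summed cells, fewer cells that express a gene and less RNA per cell cannot be told apart.

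All 54 members matched GENCODE M21 as protein-coding genes, and 363162 UMIs of the kept cells came from them. The Slc1a family had 200532 of these, Slc6a 59847, Slc38a 59508 and Slc7a 43275. No UMI was counted for Slc7a9, Slc7a12 or Slc7a15, and a count of 0 allows up to 3 UMIs. The carriers of noradrenaline (Slc6a2, 9 UMIs), dopamine (Slc6a3, 33 UMIs) and glycine at inhibitory endings (Slc6a5, 1 UMI) were close to absent from these samples. The serotonin carrier Slc6a4 had 96 UMIs, of which 84 were in P2 cortex, 8 in P7 SVZ and 4 in P7 cortex. The mean over libraries reached 50 CPM in at least 1 class for 26 members. Of these, 9 were highest in astrocyte-like cells, 5 in endothelial-like cells, 2 each in committed oligodendrocyte precursor (COP)-like, microglia-like and mural-like cells, and 1 each in mature oligodendrocyte-like, OPC-like, border macrophage-like, ependymal-like, excitatory neuron-like and striatal neuron-like cells. For 10 of the 26 the library ranges of the highest and the next class did not overlap. The share of all genes without such overlap was not computed. For Slc1a4, Slc38a1 and Slc38a5 among them, the highest or the next class was ependymal-like, which had a sum in P7 cortex only. The remaining 28 members stayed under 50 CPM on average in each class, 12 of them with fewer than 20 UMIs in all. Slc6a13, a carrier of GABA and taurine, had 514 UMIs, of which 477 lay in the 33 fibroblast-like cells, a class too small to be summed, and 24 in mural-like cells. Of the 477, 17 and 5 were in the 1 such cell of P60 cortex and of P60 white matter, against 39, 264 and 152 in the 3, 14 and 14 such cells of P2, P7 and P15 cortex. Slc6a12, the betaine and GABA carrier, had 9 UMIs in all. Of the low Slc38a genes, Slc38a6 averaged 33.2 ± 15.4 CPM (SD, n = 3) in border macrophage-like cells and Slc38a7, a lysosomal glutamine carrier, 18.8 ± 4.52 CPM (SD, n = 6) in microglia-like cells, each its highest class. The highest class mean was 13.1 CPM for Slc7a6, 12.3 CPM for Slc6a19, 5.84 CPM for Slc38a4, 3.93 CPM for Slc6a20b and 1.66 CPM for Slc6a16.

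**Figure D1:**
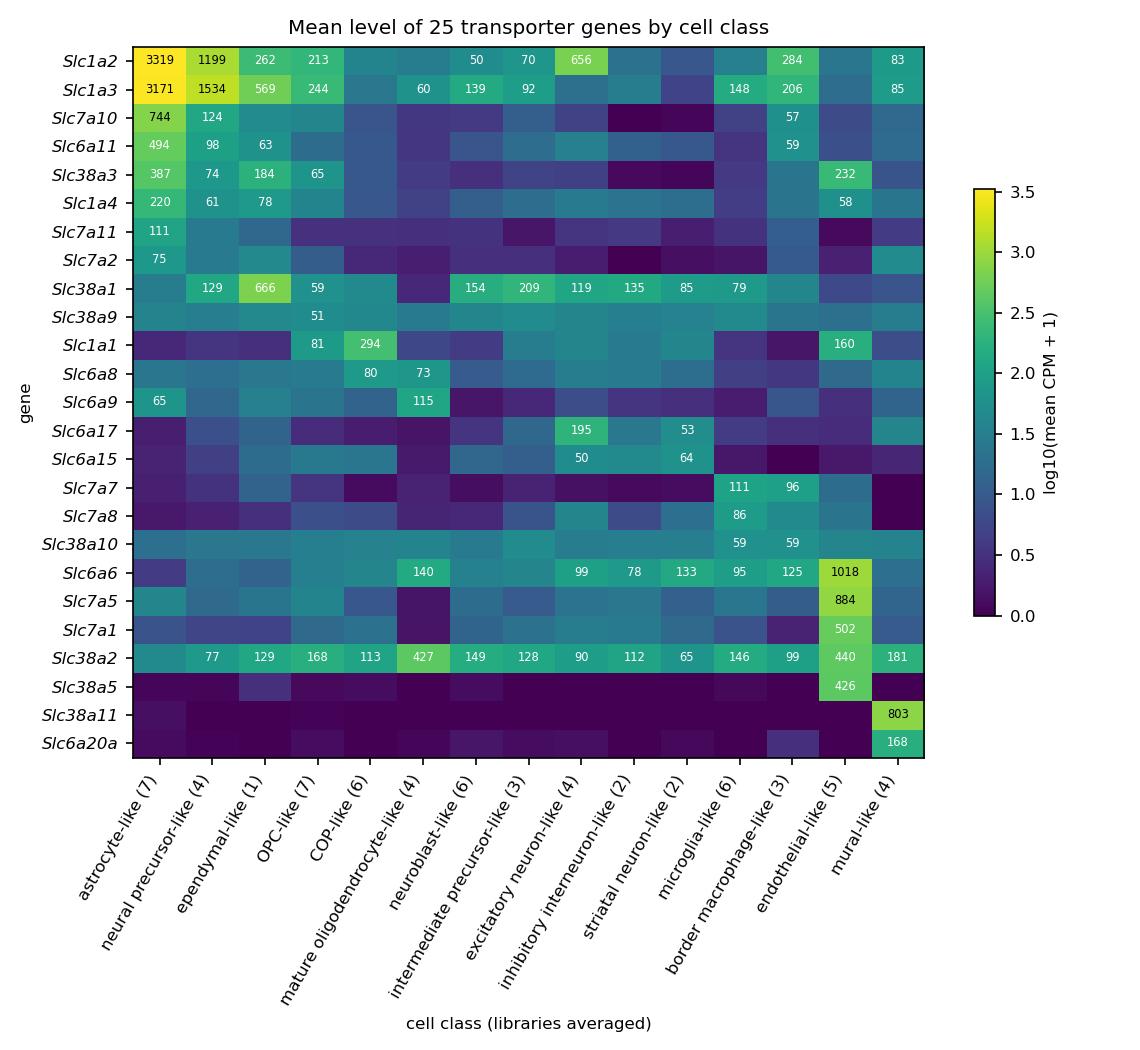
Mean level of 25 of the 26 members that reached 50 CPM (rows) in each summed class (columns, with the number of libraries averaged); colour is log10(mean CPM + 1) and means of 50 CPM or more are written in. Astrocyte-like cells hold the highest levels of Slc1a2 and Slc1a3, endothelial-like cells those of Slc6a6, Slc7a5, Slc7a1 and Slc38a5, and mural-like cells those of Slc38a11 and Slc6a20a.

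The glutamate carriers Slc1a2 (chr2:102658659-102790784, plus strand, mm10) and Slc1a3, known as GLAST (chr15:8634124-8710764, minus strand), were the most abundant members in astrocyte-like cells, at 3319 ± 1768 CPM (SD, n = 7) and 3171 ± 523 CPM (SD, n = 7). Slc1a2 read 3745, 5165 and 3683 CPM in cortex, grey matter and white matter at P60, against 615, 2256, 2159 and 5609.5 CPM in P2 cortex, P7 cortex, P7 SVZ and P15 cortex. The P2 library was lowest and P15 highest, and the adult values lay inside the early range. Slc1a3 read 3332, 3634 and 3281 CPM in cortex, grey matter and white matter at P60, against 2469, 3083, 2536 and 3865 CPM in P2 cortex, P7 cortex, P7 SVZ and P15 cortex. Its spread was narrower, with 3 early libraries below all adult ones and P15 above them. Neural precursor-like cells held both as well, with Slc1a3 at 604 to 2068 CPM and Slc1a2 at 299 to 2750.1 CPM over 4 early libraries. The neural precursor marker list in these sums came to 23829, 8861, 8803 and 4583 CPM in P2 cortex, P7 cortex, P7 SVZ and P15 cortex. The astrocyte list came to 6249, 10716, 882 and 12429 CPM, above the precursor list in P7 cortex and P15 cortex. The part of either list in the result was not tested.

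In excitatory neuron-like cells Slc1a2 was above Slc1a1 and Slc1a3 in P7 SVZ, P15 cortex and P60 cortex, while in P2 cortex Slc1a1 was higher, at 26.1 CPM. Slc1a2 had 19.1 CPM in P2 cortex, 488 CPM in P7 SVZ, 1027 CPM in P15 cortex and 1091 CPM in P60 cortex. That is 3.103, 22.6, 18.3 and 29.1% of the astrocyte-like level of the same libraries. Slc1a3 in the same neurons stood at only 0.2598 to 0.869% of its astrocyte-like level in these 4 libraries. The 16 genes of the astrocyte marker list together stood at 0.904 to 1.73%. The share of Slc1a2 was above that of the marker list in each of the 4 libraries, in P2 cortex at a level of 19.1 CPM. The part of stray astrocyte RNA in the result was not tested.

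Microglia-like cells showed the reverse pair. There Slc1a3 read 395, 71.2 and 189 CPM in cortex, grey matter and white matter at P60, against 51.4, 47.3 and 132 CPM in P7 cortex, P7 SVZ and P15 cortex. P60 cortex and white matter were highest, and P60 grey matter lay inside the early range. In P60 white matter this was 5.77% of the astrocyte-like level, while Slc1a2 was at 0.173% and the 16 astrocyte markers at 0.133%, with 8 of the 16 at 0. In P60 cortex the same shares were 11.9, 1.08 and 0.839%. In P7 cortex they were 1.67, 1.604 and 1.54%, which are close to each other. The part of stray astrocyte RNA was not tested here either.

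The neuronal glutamate carrier Slc1a1 (chr19:28835049-28913960, plus strand) was highest in the oligodendrocyte lineage before maturity. COP-like cells held 382 and 341 CPM in cortex and white matter at P60, against 209.7, 308, 270.4 and 252 CPM in P2 cortex, P7 cortex, P7 SVZ and P15 cortex. Both adult values were above the 4 early ones, but edgeR's quasi-likelihood test of stage gave no call (log2 fold change 0.36 ± 0.24 (SE), adjusted p = 0.602). The share of all genes without overlap was not computed. OPC-like cells held 80.7 ± 28.1 CPM (SD, n = 7) and mature oligodendrocyte-like cells 4.8004 ± 3.82 CPM (SD, n = 4). Endothelial-like cells also held it, at 115 to 243 CPM, whereas astrocyte-like cells were near 0 at 0 to 3.55 CPM. Slc1a6, a glutamate carrier best known from Purkinje neurons, stayed low, with its highest levels in OPC-like cells (11.1 to 24.98 CPM) and inhibitory interneuron-like cells (20.6 to 28.8 CPM). The 2061 excitatory neuron-like cells, at 5.704 to 15.6 CPM, held 445 of its 920 UMIs. Slc1a5, a glutamine and neutral amino acid exchanger, reached 25.4 CPM in microglia-like cells of P60 grey matter, against 0.348 and 1.91 CPM in the other P60 libraries and 0.451 to 7.85 CPM in the early ones.

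Among the Slc6a carriers, the GABA carrier Slc6a11 (chr6:114131241-114249952, plus strand) was highest in astrocyte-like cells, at 428, 529 and 606 CPM in cortex, grey matter and white matter at P60, against 389.7, 648, 325 and 532 CPM in P2 cortex, P7 cortex, P7 SVZ and P15 cortex. Its adult values lay within the early range. OPC-like cells had 16.3 ± 10.4 CPM (SD, n = 7) and excitatory neuron-like cells 18.2 to 44.997 CPM.

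The glycine carrier Slc6a9 (chr4:117834506-117875198, plus strand) was highest in mature oligodendrocyte-like cells, at 127, 156 and 121 CPM in cortex, grey matter and white matter at P60, against 57.7 CPM in P15 cortex. All 3 adult libraries were above P15, the only early library with enough of these cells. The P15 cells all lay in cluster 32, with a median of 23307 UMIs, and 93.5 to 96.9% of the adult ones in cluster 44, with medians of 4727.5 to 8252 UMIs, so stage and cluster cannot be told apart in this class. Astrocyte-like cells came next with 64.6 ± 34.2 CPM (SD, n = 7). The span of the gene overlaps Ccdc24, B4galt2 and Gm17114 on the other strand, and the strand setting of the counting is not given in the sources used here. The creatine carrier Slc6a8 averaged 79.95 ± 18.5 CPM (SD, n = 6) in COP-like and 73.1 ± 29.2 CPM (SD, n = 4) in mature oligodendrocyte-like cells, and these means differ by less than their spread. The taurine carrier Slc6a6 (chr6:91684053-91759066, plus strand) was highest in endothelial-like cells at 1018 ± 558 CPM (SD, n = 5). The next class, mature oligodendrocyte-like cells, had 139.5 ± 27.7 CPM (SD, n = 4), with no overlap of the ranges. Slc6a6 in astrocyte-like cells was 3.05 ± 3.08 CPM (SD, n = 7).

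Slc6a17, a vesicular carrier of neutral amino acids in neurons, led in excitatory neuron-like cells. It read 34.7 CPM in P2 cortex, 70.4 CPM in P7 SVZ, 363 CPM in P15 cortex and 312 CPM in P60 cortex. P15 and P60 were far above the earlier libraries. The cells came from different clusters, mostly 4 at P2 and 22 in P7 SVZ, and 43 at P15 and P60. The proline carrier Slc6a7, the orphan carriers Slc7a4 and Slc7a14, and Slc7a8 followed the same order between their P2 and P60 values in these neurons, with 2.69, 20.2, 44.997 and 42.2 CPM for Slc6a7, 11.9, 24.6, 41.8 and 50.1 CPM for Slc7a4, 8.93, 20.1, 26.6 and 52.3 CPM for Slc7a14 and 7.01, 30.2, 60.8 and 56.7 CPM for Slc7a8 at P2, P7 SVZ, P15 and P60. With only 1 adult sum of 142 cells these differences have no replicate check. Slc6a15, a carrier of branched-chain amino acids and proline, had 77.6 and 50.6 CPM in striatal neuron-like cells of P2 cortex and P7 SVZ and 36.3 to 65.1 CPM in excitatory neuron-like cells. Slc6a20a, a proline carrier, had 280 UMIs, 161 in mural-like cells and 79 in the 33 fibroblast-like cells, and was near 0 in the other summed classes. In mural-like cells it read 107 and 362 CPM in P60 cortex and white matter, against 147 and 54.6 CPM in P7 SVZ and P15 cortex. The fibroblast marker list summed to 307 to 1147 CPM in these 4 mural-like sums, and its part in the result was not tested. Slc6a20a and Slc6a20b are near copies of each other, so their reads may have been split.

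Slc7a10 (chr7:35186385-35201114, plus strand), an exchanger of glycine, serine and alanine, was highest in astrocyte-like cells at 950.2, 884 and 1123 CPM in cortex, grey matter and white matter at P60, against 329.7, 923, 141 and 859 CPM in P2 cortex, P7 cortex, P7 SVZ and P15 cortex. P2 and P7 SVZ were far below the other libraries. Its span overlaps Lrp3. Slc7a11 (chr3:49892526-50443614, minus strand), the cystine-glutamate exchanger called xCT, read 125, 118 and 149 CPM in cortex, grey matter and white matter at P60, against 16.4, 81.8, 153 and 136 CPM in P2 cortex, P7 cortex, P7 SVZ and P15 cortex. P2 was lowest, P7 cortex next, and the other 5 libraries lay close together. The arginine and lysine carrier Slc7a2 read 74.7, 124 and 93.6 CPM in cortex, grey matter and white matter at P60, against 29.6, 67.8, 64.6 and 67.7 CPM in P2 cortex, P7 cortex, P7 SVZ and P15 cortex. Slc1a4, a carrier of serine, alanine and cysteine, had its highest level in astrocyte-like cells too, at 181, 205 and 225 CPM in cortex, grey matter and white matter at P60, against 291, 319.7, 114 and 205 CPM in P2 cortex, P7 cortex, P7 SVZ and P15 cortex. Its highest values were in P2 and P7 cortex and its lowest in P7 SVZ.

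The promoters of Slc1a4 and Slc7a11 are shown because both genes are known targets of the amino acid response, in which the factor Atf4 binds elements with the core TGATGNAA. Sequences are from RefSeq (GRCm38.p6), each from 250 bases before to 50 bases after the annotated start, 5′ to 3′ on the strand of the gene, with matches to TGATGNAA on either strand in capitals. The Slc1a4 promoter is at chr11:20332664-20332963, minus strand, and the Slc7a11 promoter at chr3:50443564-50443863, minus strand.
Slc1a4 promoter: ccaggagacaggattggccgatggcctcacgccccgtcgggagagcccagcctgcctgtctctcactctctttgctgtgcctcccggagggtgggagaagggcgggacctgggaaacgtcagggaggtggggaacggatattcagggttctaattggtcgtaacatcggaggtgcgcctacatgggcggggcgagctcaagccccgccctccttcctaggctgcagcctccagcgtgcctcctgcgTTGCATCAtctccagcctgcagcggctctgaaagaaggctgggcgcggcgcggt
Slc7a11 promoter: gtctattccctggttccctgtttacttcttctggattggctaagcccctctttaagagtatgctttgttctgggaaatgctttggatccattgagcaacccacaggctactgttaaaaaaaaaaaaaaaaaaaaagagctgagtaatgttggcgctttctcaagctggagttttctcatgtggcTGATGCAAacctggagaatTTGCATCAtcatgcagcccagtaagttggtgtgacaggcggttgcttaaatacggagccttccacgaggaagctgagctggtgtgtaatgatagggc
The first holds 1 match and the second 2. Of all 32851 promoters RefSeq gave, 3.97% hold at least 1 match, and 5 of the 58 promoters of the 38 members given there do (Slc1a4, Slc6a21, Slc7a7 and Slc7a11). A match is a run of letters and no evidence of binding.

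Slc7a7 (chr14:54369442-54417780, minus strand), an exchanger of cationic for neutral amino acids, and Slc7a8 (chr14:54722209-54781946, minus strand), an exchanger of neutral amino acids, were highest in microglia-like cells. The span of Slc7a7 overlaps Oxa1l. Slc7a7 read 134, 113 and 108 CPM in cortex, grey matter and white matter at P60, against 98.1, 62.3 and 149 CPM in P7 cortex, P7 SVZ and P15 cortex. The stages overlapped. Border macrophage-like cells held it as well, at 96.4 CPM in P60 grey matter against 88.1 and 105 CPM in P7 and P15 cortex. Slc7a8 read 76.2, 72.8 and 68.2 CPM in cortex, grey matter and white matter at P60, against 67.1, 154 and 77.1 CPM in P7 cortex, P7 SVZ and P15 cortex. P7 SVZ stood above the other 5 libraries, which lay close together.

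Endothelial-like cells held Slc7a5 (chr8:121881150-121907694, minus strand), the large neutral amino acid exchanger LAT1, and Slc7a1 (chr5:148327410-148399904, minus strand), the arginine and lysine carrier, at 884 ± 587 CPM (SD, n = 5) and 502 ± 151 CPM (SD, n = 5). The next highest class means were 39.8 CPM for Slc7a5 (astrocyte-like) and 28.9 CPM for Slc7a1 (excitatory neuron-like). Slc7a3, another cationic amino acid carrier, was highest in OPC-like cells at 34.1, 80.8 and 24.2 CPM in cortex, grey matter and white matter at P60, against 16.3, 19.01, 13.2 and 12.2 CPM in P2 cortex, P7 cortex, P7 SVZ and P15 cortex. P60 grey matter stood above the others. Endothelial-like cells followed at 21.2 ± 17.1 CPM (SD, n = 5), with overlapping ranges, and OPC-like cells held 198 of its 436 UMIs. The heavy chain Slc3a2, which pairs with Slc7a5, Slc7a7, Slc7a8, Slc7a10 and Slc7a11, averaged 989.6 ± 778 CPM (SD, n = 5) in endothelial-like, 459.9 ± 92.2 CPM (SD, n = 3) in border macrophage-like, 422 ± 136 CPM (SD, n = 7) in astrocyte-like and 314 ± 86.4 CPM (SD, n = 6) in microglia-like cells. These are the 4 classes with the highest mean of Slc3a2.

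Of the Slc38a family, Slc38a3 (chr9:107650634-107669530, minus strand), a glutamine carrier that can run outward, was held by astrocyte-like cells at 473, 511 and 589 CPM in cortex, grey matter and white matter at P60, against 254, 356, 109.7 and 413 CPM in P2 cortex, P7 cortex, P7 SVZ and P15 cortex. All adult values were above all early ones, but edgeR's quasi-likelihood test of stage gave no call (log2 fold change 0.88 ± 0.40 (SE), adjusted p = 0.182). Endothelial-like cells held it as well, at 102 to 408 CPM, and their sums had 0.247 to 1.26% of the astrocyte-like Slc1a2 level. The part of stray astrocyte RNA in that level was not tested. Slc38a5 (chrX:8271133-8280179, plus strand), its close relative, was found in endothelial-like cells. It read 69.5, 200.2 and 380.4 CPM in cortex, grey matter and white matter at P60, against 1266 and 213 CPM in P7 cortex and P15 cortex. No other class averaged above 2.05 CPM. Slc38a2, a neutral amino acid carrier found in most cells, was highest in endothelial-like cells at 439.8 ± 298 CPM (SD, n = 5) and in mature oligodendrocyte-like cells at 427 ± 215 CPM (SD, n = 4), which did not differ beyond their spread. In mature oligodendrocyte-like cells it read 613, 573 and 379 CPM in cortex, grey matter and white matter at P60, against 142 CPM in P15 cortex. The 3 adult libraries were above P15, again from different clusters.

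Slc38a1, a glutamine carrier of neurons, reached 666 CPM (95% interval 595 to 742) in the 48 ependymal-like cells of P7 cortex, the highest of its levels. Intermediate precursor-like cells had 209 ± 48.9 CPM (SD, n = 3) and neuroblast-like cells 154 ± 26.6 CPM (SD, n = 6). Inhibitory interneuron-like cells had 133 and 137 CPM in P2 cortex and P7 SVZ, and excitatory neuron-like cells 119 ± 25.9 CPM (SD, n = 4). The ranges of intermediate precursor-like and neuroblast-like cells overlapped. Slc38a11 (chr2:65316430-65364034, minus strand), a little studied family member, was close to 0 everywhere except in mural-like cells. There it read 1116 and 1228 CPM in P60 cortex and white matter, against 118 and 749 CPM in P7 SVZ and P15 cortex. Slc38a9, the lysosomal arginine sensor, and Slc38a10 were highest in OPC-like and border macrophage-like cells and were found in every summed class, from 19.2 to 50.6 and from 18.2 to 59.3 CPM in class means.

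Class differences were tested on sums with the library as a block, with edgeR's quasi-likelihood test and Benjamini-Hochberg adjustment over all genes. The classes were cut from these same cells, although without the 54 members, so the p-values describe how far the classes differ and are not independent of the clustering. Between astrocyte-like and OPC-like cells, 25 members passed the filter on low counts and 19 were called, 10 higher and 9 lower in astrocyte-like cells, in a comparison that called 46.4% of all genes, 23.3% higher and 23.1% lower. Slc7a11 was 111 ± 48.01 CPM in astrocyte-like and 2.202 ± 2.75 CPM in OPC-like cells (log2 fold change 6.02 ± 0.33 (SE), adjusted p = 3.67e-08, higher in 7 of 7 libraries). Slc6a11 was 494 ± 118 CPM in astrocyte-like and 16.3 ± 10.4 CPM in OPC-like cells (log2 fold change 5.28 ± 0.28 (SE), adjusted p = 3.17e-08, higher in 7 of 7). The others that rose included Slc1a2, Slc1a3, Slc1a4, Slc6a9, Slc7a2, Slc7a10 and Slc38a3, with log2 fold changes of 2.10 to 4.54. The members that fell were led by Slc1a1 (log2 fold change -4.93 ± 0.37 (SE), adjusted p = 5.02e-07, lower in 7 of 7) and Slc7a3 (log2 fold change -4.90 ± 0.38 (SE), adjusted p = 6.87e-07), followed by Slc1a6, Slc6a15, Slc6a6, Slc38a2, Slc38a1, Slc7a1 and Slc38a10. The median log2 fold change was 0.10 over the 25 members and -0.01 over all genes tested. Of the other genes of glutamate and GABA metabolism, 6 of 10 tested rose and 3 fell, Glul among those that rose (log2 fold change 4.58 ± 0.22 (SE), adjusted p = 1.59e-08), and 6 of 9 tested genes of serine and glycine metabolism rose with none that fell.

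Between microglia-like and astrocyte-like cells 19 of 23 members tested were called, 8 higher and 11 lower in microglia-like cells, against 61.5% of all genes, 30.2% higher and 31.3% lower. Slc7a8 was 85.9 ± 33.6 CPM in microglia-like and 0.852 ± 1.31 CPM in astrocyte-like cells (log2 fold change 7.48 ± 0.38 (SE), adjusted p = 1.93e-08, higher in 6 of 6 libraries). Slc7a7 (log2 fold change 6.52 ± 0.34 (SE), adjusted p = 2.23e-08) and Slc6a6 (log2 fold change 5.69 ± 0.43 (SE), adjusted p = 3.13e-07) rose in 6 of 6 as well, and Slc38a1, Slc38a2, Slc38a7, Slc38a9 and Slc38a10 rose by 0.63 to 2.57 on the log2 scale. Slc7a10 (log2 fold change -7.45 ± 0.39 (SE), adjusted p = 2.49e-08) and Slc6a11 (log2 fold change -7.27 ± 0.38 (SE), adjusted p = 2.29e-08) were the furthest below. Slc1a2 was 32.6 ± 15.5 CPM in microglia-like and 3769.6 ± 1430.2 CPM in astrocyte-like cells (log2 fold change -6.53 ± 0.40 (SE), adjusted p = 6.2e-08). Slc3a2 was not called (log2 fold change -0.03 ± 0.19 (SE), adjusted p = 0.904). The median was -0.42 over the 23 members and -0.02 over all genes.

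Between mature oligodendrocyte-like and OPC-like cells, in 4 libraries, 17 of 19 members tested were called, against 46.5% of all genes, 22.2% higher and 24.3% lower. Of the 17, 5 were higher in mature oligodendrocyte-like cells: Slc6a6 (log2 fold change 2.74 ± 0.21 (SE), adjusted p = 3.9e-06), Slc6a9 (log2 fold change 2.57 ± 0.20 (SE), adjusted p = 4.38e-06), Slc6a8 (log2 fold change 1.98 ± 0.33 (SE), adjusted p = 0.000702), Slc38a2 (log2 fold change 1.57 ± 0.26 (SE), adjusted p = 0.000609) and Slc38a10 (log2 fold change 0.97 ± 0.23 (SE), adjusted p = 0.00602). Each was higher in 4 of 4 libraries. The 12 lower ones included Slc7a5, at 0.594 ± 0.4905 CPM in mature oligodendrocyte-like and 38.9 ± 11.4 CPM in OPC-like cells (log2 fold change -4.85 ± 0.42 (SE), adjusted p = 9.45e-06), and Slc1a1, Slc1a2, Slc1a3, Slc1a4, Slc1a6, Slc6a15, Slc7a1, Slc7a3, Slc7a10 and Slc38a3. The median was -2.86 over the 19 members and -0.04 over all genes. Members such as Slc7a5, near 0 in mature oligodendrocyte-like cells, passed the filter through OPC-like cells, so the median depends on that filter. Glul rose (log2 fold change 3.54 ± 0.40 (SE), adjusted p = 5.44e-05).

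Stage was compared between adult and early libraries within each class. In astrocyte-like cells none of 19 members tested was called by edgeR, against 0.39% of all genes; 5 had an unadjusted p under 0.05, and DESeq2 called none. Those 5 were Slc6a9 (log2 fold change -1.10 ± 0.37 (SE), adjusted p = 0.099), Slc38a6 (log2 fold change 1.39 ± 0.53 (SE), adjusted p = 0.13), Slc38a7 (log2 fold change 1.35 ± 0.55 (SE), adjusted p = 0.15), Slc7a5 (log2 fold change -1.06 ± 0.46 (SE), adjusted p = 0.17) and Slc38a3 (log2 fold change 0.88 ± 0.40 (SE), adjusted p = 0.182). The early group is not uniform. P15 lay within or next to the adult range for Slc7a10, Slc7a11 and Slc6a9, and without P15 the test called 5 members, among them Slc38a3 (log2 fold change 1.13, adjusted p = 0.0412), Slc38a7 (1.60, adjusted p = 0.0438) and Slc38a9 (1.18, adjusted p = 0.0182) higher in adults, and Slc6a9 (-1.27, adjusted p = 0.012) lower. Different clusters hold most astrocyte-like cells of the libraries: cluster 42 the 3 adult ones, cluster 5 P2, cluster 7 P7 cortex, cluster 38 P7 SVZ and cluster 30 P15. The neural precursor marker list in these sums came to 1364 to 1798 CPM in the adults, against 23053, 16084, 25767 and 2998 CPM in P2, P7, P7 SVZ and P15. The part of that list in the result was not tested.

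**Figure D2:**
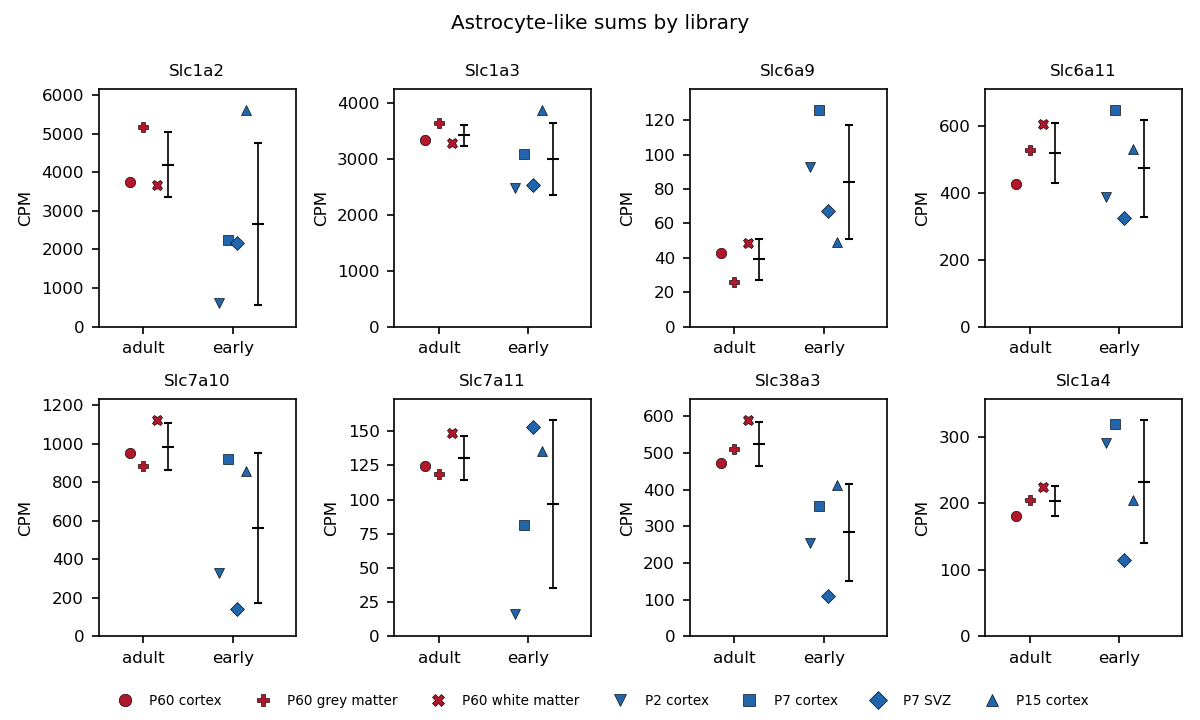
Level (CPM) of 8 members in astrocyte-like sums; each point is a library, adult libraries are on the left and early ones on the right of each panel, and the black bar is the mean with its SD. For Slc7a10 and Slc38a3 the P15 library lies near the adults and P2 and P7 SVZ lie lowest, and Slc1a2 runs from 615 CPM at P2 to 5609.5 CPM at P15.

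In OPC-like cells, 1 of 23 members tested was called, against 4.12% of all genes. Slc6a9 read 34.1, 40.4 and 29.6 CPM in cortex, grey matter and white matter at P60, against 11.7, 10.3, 12.1 and 15.01 CPM in P2 cortex, P7 cortex, P7 SVZ and P15 cortex. Every adult library was above every early one (log2 fold change 1.31 ± 0.32 (SE), adjusted p = 0.0367, means 34.7 ± 5.43 CPM in 3 adult and 12.3 ± 1.98 CPM in 4 early libraries). Slc7a3 (log2 fold change 1.48 ± 0.40), Slc1a2 (1.16 ± 0.32) and Slc7a10 (1.32 ± 0.39) were not called by edgeR, with adjusted p of 0.0556, 0.0602 and 0.073. Their stages did not overlap either, but the share of all genes without overlap was not computed. Slc1a2 in OPC-like cells read 370.3, 333 and 274 CPM in cortex, grey matter and white matter at P60, against 50.2, 118, 133 and 211 CPM in P2 cortex, P7 cortex, P7 SVZ and P15 cortex. The astrocyte marker list in these sums came to 819, 1147 and 299 CPM in cortex, grey matter and white matter at P60, against 207, 474, 207 and 547 CPM in P2, P7, P7 SVZ and P15, and its part in the result was not tested. Slc6a9 kept its call without P7 SVZ and without P15, and lost it without any 1 of the other 5 libraries, with adjusted p of 0.0744 to 0.199; DESeq2 gave 0.0622 and called Slc1a2 and Slc7a3 instead. In the same cells the glycine cleavage genes moved apart: Amt rose (log2 fold change 1.88 ± 0.46 (SE), adjusted p = 0.0393) and Gldc fell (log2 fold change -1.73 ± 0.46 (SE), adjusted p = 0.0496). The remaining 7 of 9 tested genes of serine and glycine metabolism were not called, and neither were the 9 tested of glutamate and GABA metabolism. Of the 13 tested dissociation-response genes 3 rose (Hspa1a, Dusp1 and Nr4a1), a list that summed to 1854, 8665 and 2553 CPM in cortex, grey matter and white matter at P60, against 697 to 2423 CPM in the early libraries, and of the 7 tested amino acid response genes Ddit3 rose (log2 fold change 1.74 ± 0.29 (SE), adjusted p = 0.0106).

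Slc6a9 was also the only 1 of 26 members called for a stage difference between astrocyte-like and OPC-like cells, tested as an interaction in which 1.64% of all genes were called (log2 fold change -2.36 ± 0.46 (SE), adjusted p = 0.0262). In astrocyte-like cells it read 42.5, 26.0 and 48.5 CPM in cortex, grey matter and white matter at P60, against 92.9, 126, 67.3 and 49.4 CPM in P2 cortex, P7 cortex, P7 SVZ and P15 cortex. There the adult libraries lay below the early ones, opposite to OPC-like cells, but P60 white matter (48.5 CPM) and P15 cortex (49.4 CPM) were nearly equal. The stage test within astrocyte-like cells gave no call with edgeR (log2 fold change -1.10 ± 0.37 (SE), adjusted p = 0.099). The value of P60 grey matter rests on 9 UMIs (95% interval 11.9 to 49.4 CPM). COP-like cells read 25.3 and 18.2 CPM in cortex and white matter at P60, against 8.99, 5.98, 5.21 and 9.41 CPM in P2 cortex, P7 cortex, P7 SVZ and P15 cortex, with the stages apart as in OPC-like cells but without a call (log2 fold change 1.45 ± 0.52 (SE), adjusted p = 0.376). The interaction kept its call without P2 and without P15 and lost it without any other library, P7 SVZ included, with adjusted p of 0.0592 to 0.184. Dissociation-response genes were called in the same interaction, 8 of them lower, with the list at 396, 1366 and 475 CPM in adult and 2611, 3054, 6349.99 and 344 CPM in early astrocyte-like sums. Its part in the result was not tested.

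**Figure D3:**
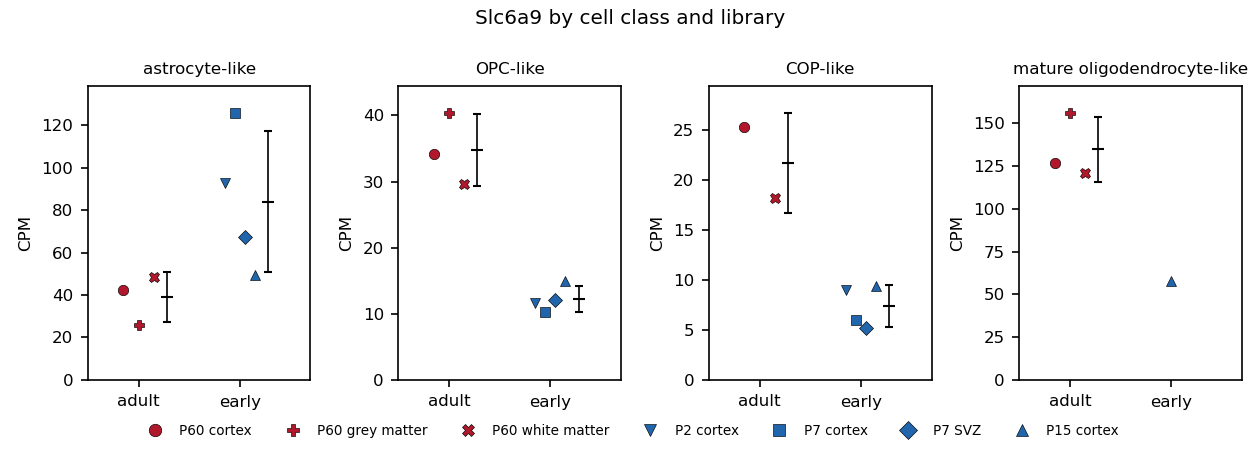
Level (CPM) of the glycine carrier Slc6a9 in 4 classes; each point is a library, adult on the left and early on the right, with mean and SD in black where a group has more than 1 library. Adult values are below early ones in astrocyte-like cells and above them in OPC-like, COP-like and mature oligodendrocyte-like cells, the last with P15 as the only early library. Within a class, stage was called in OPC-like cells only, and in astrocyte-like cells P60 white matter and P15 cortex are nearly equal.

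RefSeq lists 3 starts for Slc6a9, all on chromosome 4. The most downstream promoter (chr4:117855297-117855596, plus strand) is shown because it alone of the 3 holds a match to ACAAAGG, a core bound by SOX factors, which include Sox10 of the oligodendrocyte lineage. The match is in capitals, and its letters as printed are those of the opposite strand of the motif. Both the gene and the motif were picked after the values were seen.
Slc6a9 promoter: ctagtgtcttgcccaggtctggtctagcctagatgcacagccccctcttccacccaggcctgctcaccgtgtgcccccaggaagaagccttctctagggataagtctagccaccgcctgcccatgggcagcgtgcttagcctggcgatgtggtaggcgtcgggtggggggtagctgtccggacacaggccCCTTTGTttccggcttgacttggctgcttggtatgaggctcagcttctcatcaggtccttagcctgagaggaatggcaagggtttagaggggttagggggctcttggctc
The motif, searched on both strands, is in 5.88% of all promoters and in 6 of the 58 promoters of members (Slc6a9, Slc6a20b, Slc6a21, Slc7a7, Slc38a2 and Slc38a4). Reads from the 3′ end do not tell which start was used.

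No member was called in the other lineages with 6 libraries. In microglia-like cells none of 16 tested was called by edgeR or DESeq2, against 0.0215% of all genes, and 3 had an unadjusted p under 0.05. Slc38a1 was the closest, at 67.2, 35.998 and 54.1 CPM in cortex, grey matter and white matter at P60, against 124, 102 and 90.6 CPM in P7 cortex, P7 SVZ and P15 cortex (log2 fold change -1.01 ± 0.27 (SE), adjusted p = 0.36). The others were Slc38a6 (log2 fold change -1.18 ± 0.46 (SE), adjusted p = 0.502) and Slc1a3 (log2 fold change 1.44 ± 0.58 (SE), adjusted p = 0.513). Most microglia-like cells lay in cluster 34 (P60 cortex), 45 (P60 grey matter, led by Il1a, Cd83 and Tnf) and 33 (P60 white matter and P15), against cluster 3 for P7 cortex and P7 SVZ. In COP-like cells none of 21 was called by either tool, against 0.0324%, and 2 had an unadjusted p under 0.05, Slc6a9 among them. In neuroblast-like cells none of 15 was called by either tool, against 0.0222%, and none had an unadjusted p under 0.05.

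Endothelial-like cells, with 3 adult and 2 early sums, had 3 of 8 tested members called, against 9.93% of all genes, 5.64% higher and 4.3% lower. Slc7a5 read 556, 345 and 677 CPM in cortex, grey matter and white matter at P60, against 1847 and 993 CPM in P7 cortex and P15 cortex. It fell in adults (log2 fold change -1.43 ± 0.35 (SE), adjusted p = 0.0299). Slc38a3 read 102, 179 and 159.8 CPM in cortex, grey matter and white matter at P60, against 408 and 311 CPM in P7 cortex and P15 cortex. It fell too (log2 fold change -1.25 ± 0.33 (SE), adjusted p = 0.0388). Slc6a6 read 1317, 1495 and 1400.03 CPM in cortex, grey matter and white matter at P60, against 201 and 677 CPM in P7 cortex and P15 cortex. It rose (log2 fold change 1.73 ± 0.46 (SE), adjusted p = 0.0396). None of the 3 overlapped between stages, but the share of all genes without overlap was not computed. Slc7a1 (log2 fold change -0.67 ± 0.28 (SE), adjusted p = 0.171) and Slc38a5 (log2 fold change -1.80 ± 0.71 (SE), adjusted p = 0.146) had an unadjusted p under 0.05 only, and Slc38a5 ranged over 69.5 to 1266 CPM. The median was -0.86 over the 8 members and 0.02 over all genes.

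Slc3a2 in endothelial-like cells read 403, 805 and 723 CPM in cortex, grey matter and white matter at P60, against 2354 and 662 CPM in P7 and P15 cortex, without a call (log2 fold change -1.20 ± 0.50 (SE), adjusted p = 0.166). Glul rose (log2 fold change 1.41 ± 0.33 (SE), adjusted p = 0.0257), and so did the stress genes Ddit3 and Ddit4 of the amino acid response and 4 of 16 dissociation-response genes. Without P7 cortex no member was called, and Slc6a6 moved to a log2 fold change of 1.03, Slc7a5 to -0.97 and Slc38a3 to -1.10, while without P15 7 members were called. Leaving out P60 cortex or P60 white matter ended all 3 calls, and leaving out P60 grey matter left Slc38a3 alone. Adult endothelial-like cells lay in cluster 35, P7 cells in cluster 16, which haemoglobin genes lead, and P15 cells in both. The dissociation-response list came to 5549, 27481 and 13346 CPM in the adult sums, against 4953 and 3288 CPM in P7 and P15. The blood list came to 17925 CPM in P60 grey matter and 18278 CPM in P7 cortex, and was under 20 CPM in the other 3. The part of either list in the result was not tested. Among members that did not pass the filter, Slc1a4, picked out after its values were seen, was high in P7 cortex alone, at 4.64, 8.52 and 7.61 CPM in cortex, grey matter and white matter at P60, against 257 and 12.5 CPM in P7 and P15 cortex.

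**Figure D4:**
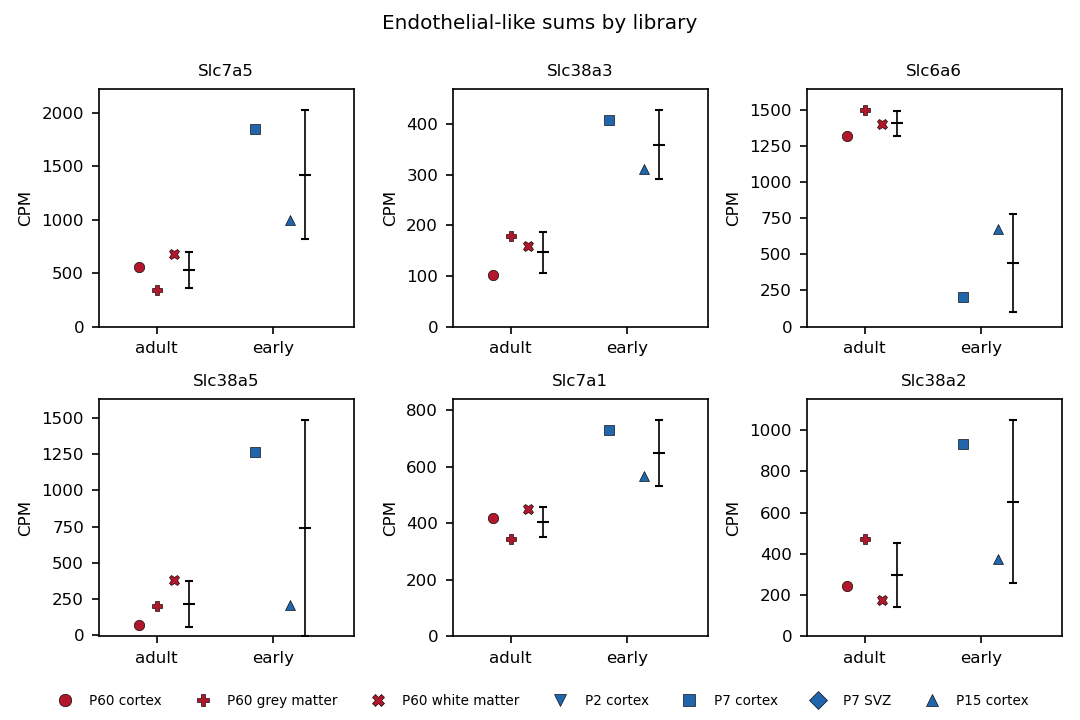
Level (CPM) of 6 members in endothelial-like sums; each point is a library, with 3 adult on the left, 2 early (P7 cortex and P15 cortex) on the right, and mean and SD in black. Slc7a5 and Slc38a3 lie lower and Slc6a6 higher in adult libraries, and P7 cortex is the most extreme early library in each panel.

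P60 white matter and P60 grey matter are 1 library each, so their differences are ratios of UMI counts with exact 95% intervals that cover counting error only. Of 72 gene and class combinations with at least 20 UMIs, 10 had an interval outside a 1.5-fold difference either way, 4 higher and 6 lower in white matter, against 7.82% of the combinations over all genes, 3.42% higher and 4.4% lower. None of 12 in mature oligodendrocyte-like cells lay outside. The median log2 ratio over all genes was between 0.02 and 0.14 by class, and between -0.18 and 0.04 for P7 SVZ over P7 cortex. Slc38a1 was 65.8 CPM in white matter against 2.89 CPM in grey matter (ratio 22.8, 95% interval 3.62 to 947) in astrocyte-like cells and 64.6 CPM in white matter against 3.37 CPM in grey matter (ratio 19.2, 95% interval 4.76 to 167) in OPC-like cells, from 19 and 24 UMIs in white matter against 1 and 2 UMIs in grey matter. In P60 cortex the same classes had 7.15 and 49.9 CPM. The share over all genes was not computed by class. Microglia-like cells held 6 of the 10, from 23 combinations. Most of these cells lay in cluster 33 in white matter and in cluster 45, led by Il1a, Cd83 and Tnf, in grey matter. Slc1a3 was 189 CPM in white matter against 71.2 CPM in grey matter (ratio 2.66, 95% interval 2.299 to 3.06) and Slc38a9 59.2 CPM in white matter against 17.6 CPM in grey matter (ratio 3.37, 95% interval 2.57 to 4.42). Slc1a2 was 6.37 CPM in white matter against 44.4 CPM in grey matter (ratio 0.143, 95% interval 0.0682 to 0.267). The astrocyte marker list in these microglia-like sums came to 21.0 CPM in white matter against 105 CPM in grey matter, and its part in the result was not tested. Slc1a5 was 1.91 CPM in white matter against 25.4 CPM in grey matter (ratio 0.0751, 95% interval 0.0154 to 0.223) and Slc7a5 19.7 CPM in white matter against 53.4 CPM in grey matter (ratio 0.3696, 95% interval 0.248 to 0.533). Slc6a17 had no UMI in white matter and 73 in grey matter, so it was lower with an upper limit of the ratio of 0.2595. The remaining 2 were Slc7a3 in OPC-like cells, 24.2 CPM in white matter against 80.8 CPM in grey matter (ratio 0.2996, 95% interval 0.129 to 0.617), and Slc38a2 in endothelial-like cells, 175 CPM in white matter against 473 CPM in grey matter (ratio 0.3702, 95% interval 0.225 to 0.584).

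**Figure D5:**
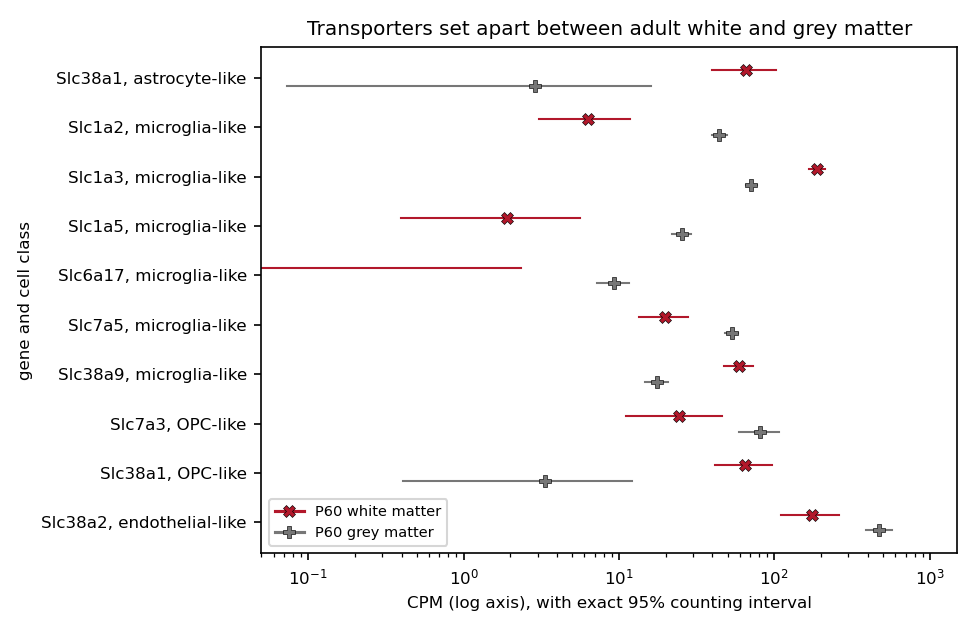
The 10 gene and class combinations whose P60 white matter (crosses, red) to grey matter (plus signs, grey) ratio lay outside 1.5-fold by its interval; the axis is CPM on a log scale and lines are exact 95% counting intervals. Slc38a1 is near 3 CPM in grey matter astrocyte-like and OPC-like cells and near 65 CPM in white matter; Slc6a17 has no point in white matter because it had no UMI there.

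P7 SVZ against P7 cortex is also a pair of single libraries, in which region, mouse strain and barcode set cannot be told apart. Of 158 combinations 35 lay outside 1.5-fold, 10 higher and 25 lower in P7 SVZ, against 15.8% of the combinations over all genes, 7.6% higher and 8.24% lower. The share over all genes was computed over the 7 classes together and not by class, so counts by class have no such share beside them. Of the 25 combinations in astrocyte-like cells 12 lay outside, 1 higher and 11 lower. Slc7a10 was 141 CPM in P7 SVZ against 923 CPM in P7 cortex (ratio 0.152, 95% interval 0.132 to 0.175) there, Slc38a3 109.7 CPM in P7 SVZ against 356 CPM in P7 cortex (ratio 0.308, 95% interval 0.262 to 0.361) and Slc38a1 4.04 CPM in P7 SVZ against 49.99 CPM in P7 cortex (ratio 0.0808, 95% interval 0.0295 to 0.177). Slc7a11 alone was higher, 153 CPM in P7 SVZ against 81.8 CPM in P7 cortex (ratio 1.87, 95% interval 1.603 to 2.17). Slc1a4, Slc1a5, Slc6a9, Slc6a11, Slc7a4, Slc7a5 and Slc38a2 were also lower, with ratios of 0.09003 to 0.535. The 2 sums came from different clusters, 38 and 7, and Slc1a2 and Slc1a3 were not among the 12.

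Slc7a5 was lower in P7 SVZ in 4 classes: astrocyte-like (26.3 CPM in P7 SVZ against 87.5 CPM in P7 cortex (ratio 0.3001, 95% interval 0.212 to 0.414)), neuroblast-like (8.54 CPM in P7 SVZ against 34.2 CPM in P7 cortex (ratio 0.249, 95% interval 0.174 to 0.352)), OPC-like (13.5 CPM in P7 SVZ against 45.6 CPM in P7 cortex (ratio 0.296, 95% interval 0.204 to 0.426)) and microglia-like (1.01 CPM in P7 SVZ against 21.8 CPM in P7 cortex (ratio 0.0461, 95% interval 0.00115 to 0.269)). Slc7a10 was lower in 4 classes as well, down to 12.1 CPM in P7 SVZ against 251 CPM in P7 cortex (ratio 0.0484, 95% interval 0.0324 to 0.0696) in neural precursor-like cells. Astrocyte markers summed there to 882 CPM in P7 SVZ against 10716 CPM in P7 cortex. In the same order they summed to 207 against 474 CPM in OPC-like, 86.2 against 247 CPM in COP-like and 85.5 against 211 CPM in microglia-like cells. The part of these markers in the result was not tested. In neuroblast-like cells 7 of 27 combinations lay outside, 5 of them higher. Slc7a11 was 9.29 CPM in P7 SVZ against 1.37 CPM in P7 cortex (ratio 6.78, 95% interval 2.72 to 21.8). Slc1a3 was 231 CPM in P7 SVZ against 107 CPM in P7 cortex (ratio 2.16, 95% interval 1.93 to 2.43). Slc1a2, Slc6a11 and Slc7a1 were the other 3, with ratios of 2.11, 2.46 and 2.203, and Slc38a10 was lower (ratio 0.493), as in OPC-like cells (ratio 0.441). By cell number, most of these neuroblast-like cells lay in cluster 29 in P7 SVZ (503 cells) and cluster 14 in P7 cortex (360 cells). Another 249 cells of P7 SVZ lay in cluster 36, led by histone genes, and 218 of P7 cortex in cluster 1, led by Ube2c and Rrm2. Median UMIs per cell were 12877 in cluster 36 and 9132.5 in cluster 1, against 3421 in cluster 29 and 3769 in cluster 14. Clusters 36 and 1 thus weigh more in the sums than their cell numbers say, and their part in the result was not tested. The neural precursor list summed to 3610.01 CPM in P7 SVZ against 1339 CPM in P7 cortex, and the neuroblast list to 6320.4 CPM in P7 SVZ against 13511 CPM in P7 cortex; their part in the result was not tested. In neural precursor-like cells Slc1a2, Slc1a3, Slc38a3 and Slc7a4 were lower with ratios of 0.231, 0.292, 0.1397 and 0.02696, whereas Slc6a6, Slc7a1 and Slc7a6 were higher with ratios of 3.11, 3.09 and 4.01. In microglia-like cells Slc7a8 was 154 CPM in P7 SVZ against 67.1 CPM in P7 cortex (ratio 2.29, 95% interval 1.82 to 2.89), and Slc38a3 had no UMI in P7 SVZ and 20 in P7 cortex. Slc38a3 was lower in COP-like cells too (ratio 0.119). None of 11 combinations in intermediate precursor-like cells lay outside.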

How the data were processed

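The authors deposited 1 filtered matrix of UMI counts per gene and cell barcode for each of the 7 libraries, on mm10 per the submitters' processing notes; the file headers name Cell Ranger 3.0.2. The sources used here give neither the annotation release nor the strand setting of that step. Counts were used as deposited, with no normalization.

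Barcodes with fewer than 500 genes (1304) or more than 10% mitochondrial UMIs (3441) were left out, and Scrublet doublet calls (305) were removed, which left 20697 cells of 25747 with median depths of 2791 to 9530.5 UMIs per cell. Counts scaled to 10000 per cell, 2000 variable genes without any Slc1a, Slc6a, Slc7a or Slc38a gene, 30 components, 15 neighbours and Leiden clustering at resolution 1.5 gave the clusters (scanpy 1.11.5). A cluster took the class with most raised markers and most of its 10 leading genes. This scoring rule was chosen after the data were seen. The members, the marker and pathway lists and the tests were chosen with earlier results of these data known. Most clusters of dividing cells stayed unnamed.

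UMIs were summed per library and class with at least 20 cells, expressed as CPM of the sum and tested with edgeR 4.0.16 (TMM, filterByExpr, quasi-likelihood test, Benjamini-Hochberg over all genes, threshold 0.05). Standard errors are the log2 fold change divided by the square root of F. Class comparisons and the interaction of stage and class had the library as a block. Single libraries were compared by exact 95% binomial intervals on at least 20 UMIs. Intervals and floors cover counting error only. Each fit was tested on simulated counts. Alternatives were other scaling factors, no filter, DESeq2 1.42.0, at least 50 cells, at most 5% mitochondrial UMIs, cells thinned to 2000 UMIs, no library block and each library left out. Positions come from GENCODE M21 and promoters from RefSeq, where 38 members matched.

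Members were described in full where their mean reached 50 CPM in a class, where a test called them, where a pair of single libraries set them apart or where no UMI was counted. Other members that are named were picked after their values were seen. 1 member enters the counts and medians but is not reported here.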

Additional observations from a re-analysis of the deposited data

Results flagged for a closer look

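The stage difference of the glycine carrier Slc6a9 was not the same in astrocyte-like and OPC-like cells, by a test of the difference itself: the interaction was -2.36 ± 0.46 (SE) on the log2 scale, adjusted p = 0.0262 with edgeR's quasi-likelihood test, with 3 adult and 4 early libraries.

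Among 36 groups of 4 early libraries that were examined, each for a member averaging at least 50 CPM in the class, 2 held a library far from the others. In early astrocyte-like sums the cationic amino acid carrier Slc7a2 had 29.6 CPM in P2 cortex, against 64.6, 67.7 and 67.8 CPM in P7 SVZ, P15 cortex and P7 cortex. In early neuroblast-like sums the neutral amino acid carrier Slc38a2 had 185 CPM in P7 SVZ, against 134, 138 and 143 CPM in P7 cortex, P15 cortex and P2 cortex. Chance flags about 1 in 20 such groups, so 2 of 36 is near that rate.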

How the results depend on the processing

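No paired analysis was possible for the stage comparison because the labels give no replicate numbers; the class comparisons and the interaction had the library as a block. The count of members called in OPC-like cells by stage, 1 as reported, became 5 with total UMIs only, 7 with no filter on low counts, 2 with DESeq2, and 0 to 4 with a library left out. In endothelial-like cells 3 calls became 7 with no filter, 5 with DESeq2, 0 with at least 50 cells per sum, and 0 to 7 with a library left out. The interaction gave 2 in place of 1 with no filter and 0 to 3 with a library left out, and astrocyte-like cells 0 to 5. Without P15 cortex the counts were 5 in astrocyte-like, 4 in OPC-like and 7 in endothelial-like cells and 3 for the interaction. The cause was not tested. Counts in microglia-like, COP-like and neuroblast-like cells stayed at 0 whichever library was left out, and the class comparisons moved between 17 and 21 (astrocyte-like over OPC-like), 18 and 20 (microglia-like over astrocyte-like) and 14 and 19 (mature oligodendrocyte-like over OPC-like). Single members were compared between runs only where they already stood apart. These had an unadjusted p under 0.05 by stage or interaction, or were among the 10 calls with the smallest p of a class comparison. For the pairs of single libraries, they were the combinations outside 1.5-fold. None of these values turned its sign in an alternative run, which says nothing of the other members. For single members, 604 values counted as unchanged, 25 lost a call, 23 gained one and 1 moved (Slc1a3 in microglia-like cells of P60 white matter over grey matter, to a ratio of 2.28 with TMM factors). A tested value was unchanged if its adjusted p stayed on its side of the threshold. A single-library ratio was unchanged if its TMM ratio lay inside the counting interval of the main ratio, which does not check the 1.5-fold bound. With TMM factors the single-library pairs gave 11 and 36 combinations in place of 10 and 35. Of 26 members, 22 kept their highest class by the share of cells with a UMI at 2000 UMIs per cell (not Slc38a10, Slc38a2, Slc38a9 and Slc7a7), and 27 reached 50 CPM with at most 5% mitochondrial UMIs. In the endothelial-like test 46 of 54 members did not pass the filter on low counts, and how many of these are lowly expressed and how many limited by depth was not tested.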
